A study of Mus musculus with 18 samples.

Results

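Collagens are the triple-helical proteins that give connective tissue its strength. Each collagen molecule is a trimer of alpha chains, and each chain has its own gene. Fibrillar collagens such as types I, III and V assemble into fibrils in skin, tendon and bone, and types II and XI do so in cartilage, where type IX decorates the fibril surface. Other members form the sheet of the basement membrane, the beaded filaments of type VI around cells, or short-chain networks, and some span the plasma membrane. Fibroblasts are a main source of types I, III, V and VI.

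All genes whose symbol has the form Col, number, a, number were taken, whatever their measured values, though the family was chosen with earlier results of these data known. This gave 42 of the 18820 genes measured alone on the array. By structure, 11 were fibrillar, 8 fibril-associated, 6 beaded-filament, 6 basement membrane, 3 short-chain, 4 membrane-spanning, 2 multiplexin and 2 of other kinds. Col7a1 and Col9a3 share their probe sets with a neighbouring gene and have no value here.

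Every array held RNA of clone C2, a line of mouse embryonic fibroblasts (MEFs, from embryos of 13.5 d) transformed with c-Myc, with the genotype Ezh2 flox/Δ;ROSA26-CreERT2. ROSA26 drives the tamoxifen-dependent recombinase in every cell, and 4-hydroxytamoxifen deletes the floxed allele of Ezh2. Ezh2 is the catalytic subunit of PRC2, the Polycomb complex that places the repressive histone mark H3K27me3. A time course set cells at day 5, day 18 and day 32 of tamoxifen beside vehicle (ethanol) cells. The other experiment, a rescue, held Ezh1 pre-rescue and Ezh2 pre-rescue cells, which received Flag-Ezh1 or Flag-Ezh2 by retrovirus before endogenous Ezh2 was deleted. It also held Ezh2 post-rescue cells, which received Flag-Ezh2 after deletion, Ezh2 -/- cells with no transgene, and control cells. The study calls the control cells wild type for Ezh2, though the clone is Ezh2 flox/Δ. Each of the 9 groups had 2 arrays (18 in all), so one clone stands for every group and the number of arrays limits the precision of every value. The replicates are biological by the study's account, yet the labels name no separate cultures, and the p-values therefore reflect only how far these arrays spread, which may be technical. No group of the time course received tamoxifen while keeping Ezh2, so deletion, treatment and days in culture cannot be told apart there. No group of the rescue experiment is labelled as carrying an empty vector. Where rescue cells are set beside Ezh2 -/- cells, the transgene, retroviral infection and hygromycin selection therefore cannot be told apart.

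Values are log2 intensities after RMA, a method that normalizes arrays together and summarizes the probes of a gene. The experiments were normalized apart, so levels were compared only within each. Changes are differences of log2 values ± SE (n = 2 arrays per group) from limma's moderated linear model, and a gene was called at a Benjamini-Hochberg adjusted p under 0.05 over all 18820 genes. Across genes, the r of replicate arrays was 0.994 to 0.999, and across the collagen genes with r between 0.988 and 0.998. The Ezh2 probe set read 9.73 and 9.81 at day 32 and 9.37 and 9.43 in vehicle cells, and 10.46 and 10.48 in Ezh2 -/- and 10.36 and 10.56 in control cells. Since it did not fall, it cannot serve as a check of the deletion, for which the labels were relied on. The fibroblast markers Vim (vimentin) and Pdgfra read 12.45 to 12.70 and 9.60 to 10.15 over the time course, whereas Thy1 read 3.85 to 4.23, below the median gene of every array.

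Sequence upstream of the gene start is shown for 3 of the collagen genes that fell at least 2-fold at day 18 and day 32 (Col8a1, Col9a1 and Col11a1), and for Col5a1, a fibrillar gene not called in either experiment. Each stretch is the 150 bases just before the first annotated base of the gene in RefSeq (GRCm38.p6), written 5′ to 3′ on the strand of the gene, with CpG dinucleotides in capitals because PRC2 is known to occupy CpG-rich promoters.
Col9a1, chr1:24177439-24177588, plus strand, which holds 0 CpG: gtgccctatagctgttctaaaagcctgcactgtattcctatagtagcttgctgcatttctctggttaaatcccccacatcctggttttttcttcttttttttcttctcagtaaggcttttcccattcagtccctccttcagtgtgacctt
Col11a1, chr3:114030329-114030478, plus strand, which holds 2 CpG: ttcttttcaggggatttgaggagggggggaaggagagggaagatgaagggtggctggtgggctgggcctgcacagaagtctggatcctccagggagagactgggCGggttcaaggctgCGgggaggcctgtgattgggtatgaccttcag
Col8a1, chr16:57754738-57754887, minus strand, which holds 7 CpG: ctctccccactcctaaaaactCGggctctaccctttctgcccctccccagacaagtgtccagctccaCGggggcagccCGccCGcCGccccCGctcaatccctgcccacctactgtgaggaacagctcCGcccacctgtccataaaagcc
Col5a1, chr2:27886231-27886380, plus strand, which holds 16 CpG: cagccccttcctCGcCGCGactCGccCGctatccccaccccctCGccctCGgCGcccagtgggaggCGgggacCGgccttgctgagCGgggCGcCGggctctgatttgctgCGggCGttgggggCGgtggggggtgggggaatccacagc
The stretch of Col9a1 has no CpG at all and that of Col5a1 is dense in them. Col5a1 is a single chosen gene, and whether CpG content went with the change of a gene was not tested.

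RefSeq promoter windows of 300 bases were matched for 34 of the 42 members, with 37 windows in all. Their median CpG count was 11, against 7 over all 32851 windows. Among the genes called lower at day 32, Col28a1, Col3a1 and one start of Col9a1 had 0 CpG in the window, a count found in 5.43% of all windows, while Col4a1 had 37. Col4a1 and Col4a2 are transcribed away from each other from starts 21 bases apart and share 78 bases of window. The letters TATAAA, on either strand, occurred in 13.5% of member windows (5 of 37) and 13.6% of all windows. GGGCGG, the core of the GC box, occurred in 59.5% of member windows (22) and 35.7% of all, and CCAAT in 32.4% (12) and 37.4%. ACAAAG or ACAATG, the core letters bound by SOX factors, occurred in 13.5% (5) and 28.6%. The SOX letters were in none of the windows of Col9a1, Col11a1 and Col8a1, and were present in those of Col28a1 and Col3a1. These are matches of letters in a short window, not binding sites.

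In the time course the collagen genes moved mostly downward, and more so at the later times. At day 5, 3 members rose and 6 fell, at day 18, 2 rose and 12 fell, and at day 32, 1 rose and 14 fell. The background at day 5 was 11% of genes higher and 5.72% lower. It was 15.2% higher and 10.5% lower for day 18, and 18.4% higher and 14.2% lower for day 32. The share of members called lower at day 32 was thus 33.3%. The median change of the 42 members was −0.05 at day 5, −0.16 at day 18 and −0.22 at day 32, beside −0.005, −0.023 and −0.018 over all genes. Counting calls of at least 2-fold, 1 member fell at day 5 (0.186% of all genes did) and 5 at day 18 and day 32 (0.94% and 1.66% of all genes), and 0 rose at any of these times (0.967%, 2.1% and 2.57% of all genes). In bulk RNA, fewer cells that make a collagen and less collagen RNA per cell cannot be told apart. Centring each array on its median instead moved the median of all genes to −0.15, −0.18 and −0.14 and gave 2 members higher and 12 lower for day 5, 2 higher and 28 lower for day 18, and 1 higher and 27 lower for day 32. Under that scaling 6.47% of all genes were higher and 21.9% lower for day 5, 9.63% and 32.7% for day 18, and 13.4% and 26.6% for day 32. No called member changed sign under that scaling or under quantile normalization. The day 5 count rested on few arrays and was 4 without day 5 replicate 1, and 6 without day 5 replicate 2 or without vehicle replicate 1.

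**Figure D1:**
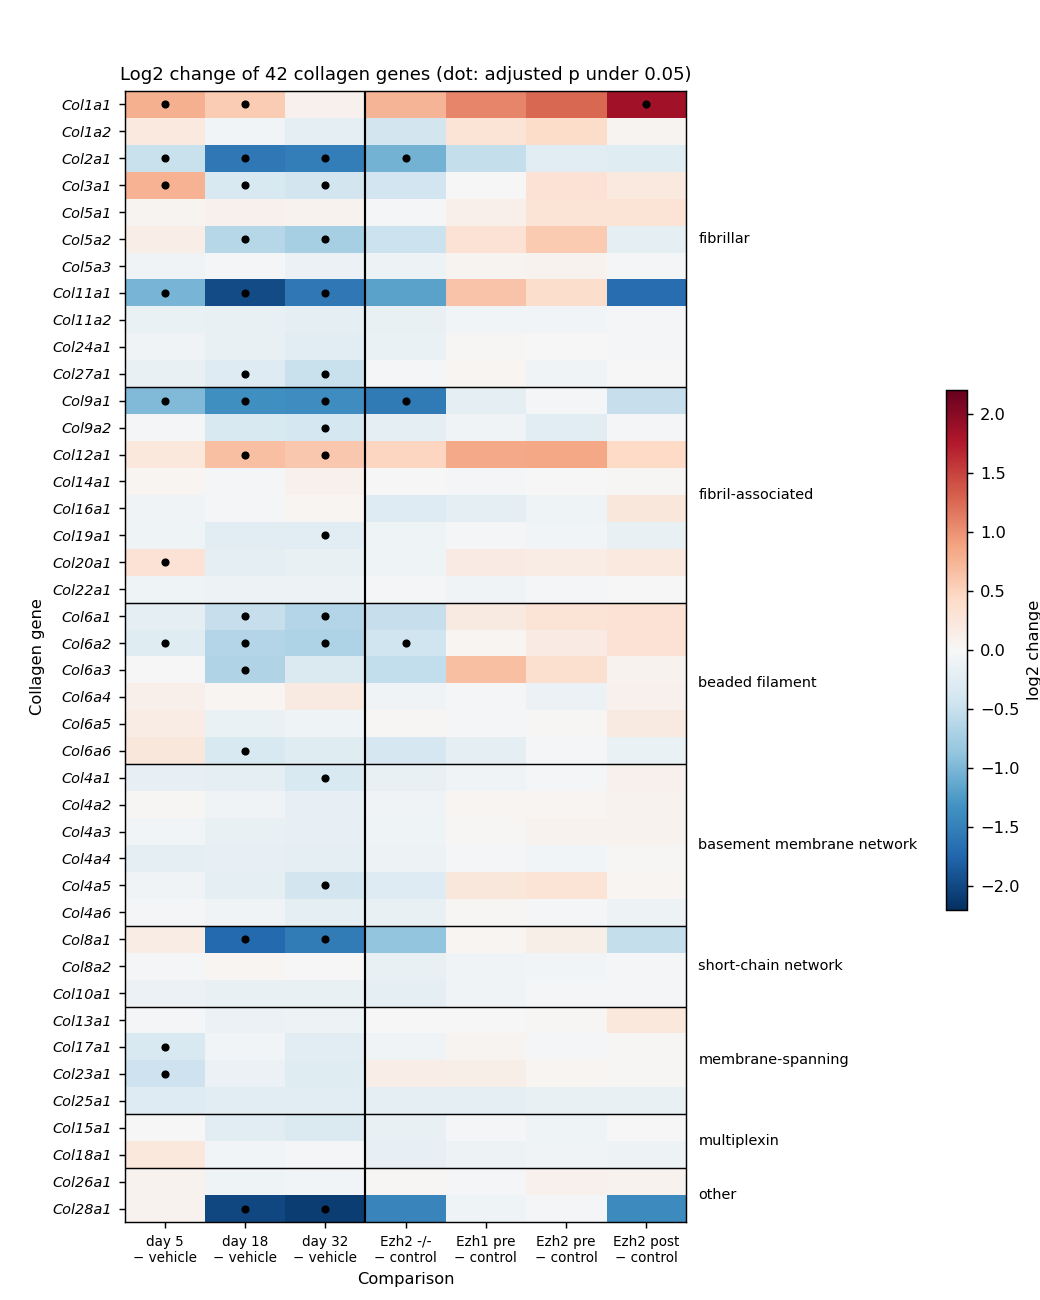
Log2 change of each of the 42 collagen genes (rows, grouped by structural class) in 7 comparisons (columns), from blue for lower to red for higher, with a dot where the adjusted p was under 0.05. Dots lie mostly on blue cells at day 18 (12 lower, 2 higher) and day 32 (14 lower, 1 higher), and fibrillar, fibril-associated and type VI genes carry most of them.

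Col2a1, Col9a1 and Col11a1, collagens of cartilage, were lower than vehicle from day 5 on. Col2a1, the only chain of type II collagen, read 7.31 and 7.63 in vehicle cells, 6.90 and 7.06 at day 5, 5.89 and 5.88 on the day 18 arrays, and 5.79 and 6.09 at day 32. Its change was −0.49 ± 0.128 at day 5 (adjusted p = 0.0285), −1.58 ± 0.128 at day 18 and −1.52 ± 0.128 at day 32 (adjusted p = 1.91e-05). The day 5 call was lost without vehicle replicate 2 (−0.33, adjusted p = 0.139), day 5 replicate 1 (−0.41, adjusted p = 0.163) or day 5 replicate 2 (−0.57, adjusted p = 0.0652). Both arrays of each time point lay below both vehicle arrays, and day 18 and day 32 overlapped. Such separation was common among all genes, with 26.1%, 32.1% and 32.2% wholly below vehicle at day 5, day 18 and day 32. Wholly above vehicle were 28.5%, 29.8% and 31.3%.
Col9a1, a chain of the type IX collagen that coats type II fibrils, read 8.81 and 9.01 in vehicle cells, 8.04 and 7.84 at day 5, 7.67 and 7.44 on the day 18 arrays, and 7.43 and 7.67 at day 32. Most of its fall was present at day 5 (−0.97 ± 0.122), with −1.35 ± 0.122 at day 18 and −1.36 ± 0.122 at day 32, and all tamoxifen arrays were below the vehicle arrays. Its partner Col9a2 was called at day 32 only (−0.39 ± 0.116, adjusted p = 0.0271), a call lost without either vehicle array or without day 32 replicate 1 (−0.44 to −0.27), with −0.33 ± 0.116 at day 18 (adjusted p = 0.0692).
Col11a1, a chain of the type XI collagen at the core of cartilage fibrils, read 6.92 and 7.14 in vehicle cells, 6.08 and 5.92 at day 5, 5.10 and 5.03 on the day 18 arrays, and 5.46 and 5.43 at day 32. It was the member that fell 2-fold by day 5 (−1.03 ± 0.093, adjusted p = 0.000128), and reached −1.97 ± 0.093 at day 18 (adjusted p = 9.86e-07) and −1.58 ± 0.093 at day 32. The day 32 arrays lay between those of day 5 and day 18, but the difference from day 18 (0.38 ± 0.093) was not called (adjusted p = 0.0542).
Col10a1, the collagen of hypertrophic cartilage, was below the median gene on every array of both experiments and was not called in any comparison.

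A pair of genes fell late. Col8a1, a short-chain collagen of vessel walls and the cornea, read 9.04 and 9.61 in vehicle cells, 9.43 and 9.57 at day 5, 7.56 and 7.68 on the day 18 arrays, and 7.82 and 7.76 at day 32. The day 5 and vehicle arrays overlapped (0.17 ± 0.155, adjusted p = 0.524), and the fall lay between day 5 and day 18 (−1.88 ± 0.155, adjusted p = 1.61e-05).
Col28a1, a collagen first described in peripheral nerve, read 7.01 and 7.54 in vehicle cells, 7.48 and 7.23 at day 5, 5.38 and 5.16 on the day 18 arrays, and 5.03 and 5.33 at day 32. It was 0.08 ± 0.174 from vehicle at day 5 (adjusted p = 0.813), then −2.01 ± 0.174 at day 18 and −2.09 ± 0.174 at day 32 (adjusted p = 1.76e-05), the lowest change of any member at both times.

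The main fibroblast collagens had another course. Col1a1, the chain present in double dose in type I collagen, read 7.29 and 7.17 in vehicle cells, 7.89 and 8.13 at day 5, 7.78 and 7.80 on the day 18 arrays, and 7.24 and 7.40 at day 32. Its rise was 0.79 ± 0.099 on day 5 (adjusted p = 0.000793) and 0.56 ± 0.099 on day 18, and it fell by 0.47 ± 0.099 between day 18 and day 32 (adjusted p = 0.0326), which left it 0.09 ± 0.099 from vehicle at day 32 (adjusted p = 0.541). It was the only member called between day 18 and day 32, where 1.4% of all genes were called higher and 2.75% lower. That call was lost without any 1 of the day 18 or day 32 arrays and under quantile normalization.
Col1a2, the other chain of type I collagen, read 9.70 and 9.82 in vehicle cells, 9.88 and 10.05 at day 5, 9.70 and 9.69 on the day 18 arrays, and 9.53 and 9.59 at day 32. No difference from vehicle was called for it (adjusted p = 0.134 for 0.21 ± 0.083 at day 5, and 0.102 for −0.20 ± 0.083 at day 32), but it fell between day 5 and day 18 by 0.26 ± 0.083 (adjusted p = 0.0371), a call lost without day 5 replicate 2 (−0.18, adjusted p = 0.223) or any 1 array of day 18 or day 32 (−0.27 to −0.26). Whether the chains of type I collagen differed in their change was not tested.
Col3a1, the chain of type III collagen, read 8.32 and 8.39 in vehicle cells, 9.07 and 9.18 at day 5, 8.10 and 7.95 at day 18, and 7.95 on both day 32 arrays. It was 0.77 ± 0.082 above vehicle at day 5 (adjusted p = 0.0003) and lay below vehicle at day 18 (−0.33 ± 0.082, adjusted p = 0.0148) and day 32 (−0.40 ± 0.082, adjusted p = 0.00401). The groups did not overlap at any of the 3 times, and day 18 differed from day 5 by −1.11 ± 0.082. The day 18 call against vehicle was lost without vehicle replicate 2 (−0.29, adjusted p = 0.065) or day 18 replicate 2 (−0.26, adjusted p = 0.115).

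**Figure D2:**
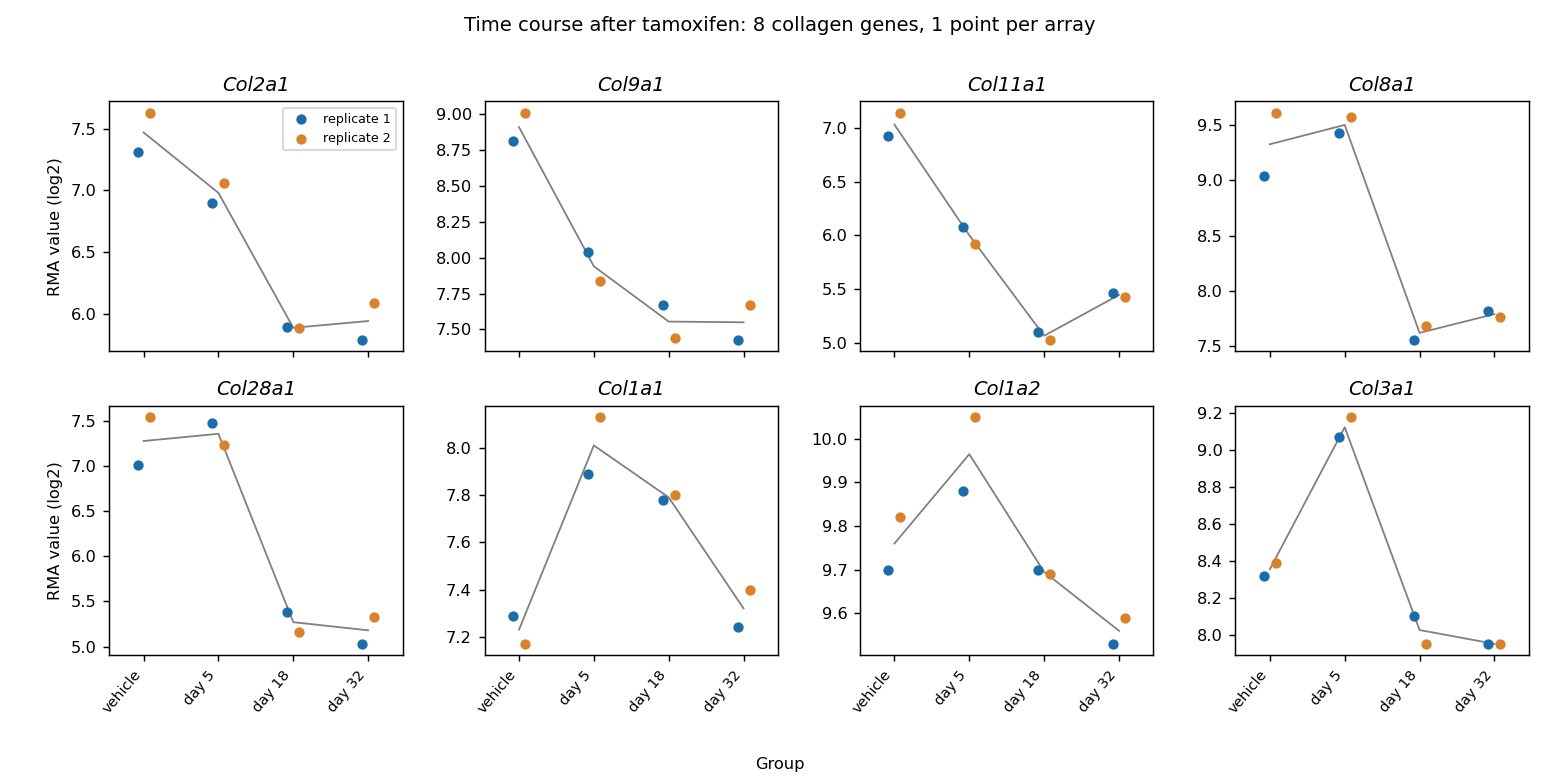
RMA log2 value on each array (1 point per array, 2 per group, grey line through the group means) of 8 collagen genes across vehicle, day 5, day 18 and day 32, with a separate vertical scale per gene. Col2a1, Col9a1 and Col11a1 were below vehicle at day 5, Col8a1 and Col28a1 fell between day 5 and day 18, and Col1a1 and Col3a1 were above vehicle at day 5.

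Between day 5 and day 18 as a whole, 3 members rose and 14 fell, beside 15.6% and 16.1% of all genes, and without day 18 replicate 2 the total was 11. At 2-fold, Col2a1, Col3a1, Col8a1 and Col28a1 fell (2.04% of all genes did) and 0 members rose (2.62%). The rest of the fibrillar class was mixed. Col5a2, the second chain of type V collagen, fell by 0.63 ± 0.074 at day 18 and 0.73 ± 0.074 at day 32 (adjusted p = 6.06e-05), with 8.24 and 8.23 at day 32 and 8.90 and 9.03 in vehicle cells. Its partner Col5a1 read 6.96 and 6.98 at day 32 and 6.79 and 6.99 in vehicle cells and was not called at any time (0.08 ± 0.083 at day 32, with a 95% interval from −0.11 to 0.26). Col5a2 lies 24625 bases from Col3a1 on chromosome 1, with no coding gene between them, and at day 5, where Col3a1 was called, Col5a2 was not (0.15 ± 0.074, adjusted p = 0.213). Col27a1, a fibrillar collagen of cartilage, fell by 0.29 ± 0.083 at day 18, a call lost without vehicle replicate 1 or day 18 replicate 2 (adjusted p up to 0.188), and 0.49 ± 0.083 at day 32 (adjusted p = 0.00143). Col5a3, Col11a2 and Col24a1 were not called in any of these comparisons.

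Type VI collagen forms beaded filaments from one chain each of Col6a1, Col6a2 and a further partner. Col6a1 fell by 0.50 ± 0.081 at day 18 and 0.64 ± 0.081 at day 32 (adjusted p = 0.000242), with 9.57 and 9.63 at day 32 and 10.19 and 10.28 in vehicle cells. Col6a2, its neighbour on chromosome 10, fell by 0.27 ± 0.079 at day 5, 0.64 ± 0.079 at day 18 and 0.68 ± 0.079 at day 32 (adjusted p = 0.000131), with 9.26 and 9.23 at day 32 and 9.91 and 9.94 in vehicle cells. Its day 5 call was lost in 8 of 13 alternative settings, with the replicate block or without any 1 array other than day 5 replicate 2 (adjusted p up to 0.218). Col6a3, the usual partner, fell at day 18 (−0.66 ± 0.173, adjusted p = 0.02) but was not called at day 32 (−0.31 ± 0.173, adjusted p = 0.215), where its vehicle arrays of 6.20 and 6.89 spanned the day 32 arrays of 6.23 and 6.25. The day 18 call was lost without either day 18 array (adjusted p up to 0.082), and the change was −0.32 without vehicle replicate 2. Of the alternative partners, Col6a6 fell at day 18 (−0.33 ± 0.105, adjusted p = 0.0471), a call lost in 8 of 13 settings (adjusted p up to 0.235), and Col6a4 and Col6a5 were not called.

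Among fibril-associated members, Col12a1, a collagen on the surface of type I fibrils, was the one that rose late. It read 9.56 and 9.53 in vehicle cells, 9.76 and 9.79 at day 5, 10.22 and 10.21 on the day 18 arrays, and 10.09 and 10.20 at day 32, and rose by 0.67 ± 0.072 at day 18 and 0.60 ± 0.072 at day 32 (adjusted p = 0.000174). Col20a1 rose at day 5 only (0.32 ± 0.080, adjusted p = 0.0224), and that call was lost under median centring, under quantile normalization and without either day 5 array or vehicle replicate 1. Col19a1, 4945 bases from Col9a1, fell by 0.24 ± 0.079 at day 32 (adjusted p = 0.0424), and its call was lost in 9 of 12 settings, among them quantile normalization and every array left out (adjusted p up to 0.222). Col14a1, Col16a1 and Col22a1 were not called. Of the basement membrane genes, Col4a1 fell by 0.33 ± 0.081 and Col4a5 fell by 0.41 ± 0.073 at day 32, the call of Col4a1 being lost without vehicle replicate 1 or day 32 replicate 1 (adjusted p up to 0.0924), while Col4a2 was at −0.18 ± 0.118 (adjusted p = 0.287) and Col4a3, Col4a4 and Col4a6 were not called. The membrane-spanning Col17a1 and Col23a1 fell at day 5 (−0.34 ± 0.090 and −0.46 ± 0.099) and rose between day 5 and day 18 by 0.28 ± 0.090 and 0.33 ± 0.099. The calls of Col17a1 were lost in 3 of 13 settings for the fall and in 7 for the rise, median centring included, and those of Col23a1 in 2 and 4. Of the multiplexins, Col18a1 fell between day 5 and day 18 (−0.30 ± 0.074) and Col15a1 was not called, and neither were Col8a2, Col13a1, Col25a1 and Col26a1. On all time-course arrays 23 members lay below the median of their array, as 47.3% of all genes did. Of these 23, 3 were called at day 32 (Col4a1, Col9a2 and Col19a1), whereas 11 of the other 19 were called lower and 1 higher. Col6a6, Col17a1 and Col18a1, called in other comparisons of the time course, were also among these 23. Of all genes below the median on every array 9.98% were called at day 32, and of all other genes 22.4% were lower and 30.6% higher.

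The rescue experiment asked whether the changes recur in Ezh2 -/- cells and whether Ezh1 or Ezh2 prevents or reverts them. In Ezh2 -/- cells Col2a1, Col6a2 and Col9a1 fell and 0 members rose, beside 0.755% of all genes lower and 1.2% higher, and 15 members had an unadjusted p under 0.05 (15.5% of all genes). Col2a1 and Col9a1 passed 2-fold, as 0.213% of all genes did on the lower side. The median of the members was −0.16 and that of all genes −0.03. The count is fragile, with 0 members called without either Ezh2 post-rescue array, 1 without Ezh2 -/- replicate 2, 2 without any 1 of the pre-rescue arrays and 6 without control replicate 1. Set beside the time course, all 14 genes called lower at day 32 had a negative change in Ezh2 -/- cells, where 35 of the 42 members were below 0. The genes called in both were 3, which is 21.4% of the day 32 list and 100% of the short Ezh2 -/- list. The same shares over all genes are not given here, so this overlap cannot be read as particular to collagen genes.

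Col2a1 read 8.06 and 8.29 with Ezh1 pre-rescue, 8.40 and 8.54 with Ezh2 pre-rescue, 8.30 and 8.57 with Ezh2 post-rescue, 7.46 and 7.87 in Ezh2 -/- and 8.85 and 8.55 in control cells. It fell by 1.04 ± 0.153 in Ezh2 -/- cells (adjusted p = 0.0194) and was 0.81 ± 0.153 higher in Ezh2 pre-rescue than in Ezh2 -/- cells (adjusted p = 0.0266), a call lost without any 1 Ezh2 -/-, Ezh2 pre-rescue or Ezh2 post-rescue array (adjusted p up to 0.189). The Ezh2 -/- arrays were below every other array, but the call against control was lost without Ezh2 -/- replicate 1 (−0.88, adjusted p = 0.0558) or either Ezh2 post-rescue array (−1.04, adjusted p = 0.0524).
Col9a1 read 9.61 and 10.25 with Ezh1 pre-rescue, 9.74 and 10.42 with Ezh2 pre-rescue, 9.60 and 9.62 with Ezh2 post-rescue, 8.87 and 8.26 in Ezh2 -/- and 10.09 and 10.15 in control cells. It fell by 1.56 ± 0.281 in Ezh2 -/- cells (adjusted p = 0.0401) and was 1.52 ± 0.281 higher in Ezh2 pre-rescue (adjusted p = 0.025) and 1.37 ± 0.281 higher in Ezh1 pre-rescue than in Ezh2 -/- cells (adjusted p = 0.0541, not called). Here too the Ezh2 -/- arrays were the lowest pair, while the pre-rescue arrays spanned the control arrays. The call against control was lost without Ezh2 -/- replicate 2 (−1.08, adjusted p = 0.127), control replicate 1 (−1.50), control replicate 2 (−1.62) or either Ezh2 post-rescue array (−1.56). That between Ezh2 pre-rescue and Ezh2 -/- cells was lost without Ezh2 -/- replicate 2 (1.04) or any 1 Ezh2 pre-rescue or Ezh2 post-rescue array (adjusted p up to 0.198).
Col28a1 read 7.39 and 7.49 with Ezh1 pre-rescue, 7.30 and 7.67 with Ezh2 pre-rescue, 6.13 and 6.16 with Ezh2 post-rescue, 6.48 and 5.68 in Ezh2 -/- and 7.20 and 7.88 in control cells. Its change in Ezh2 -/- cells was −1.46 ± 0.293 and missed the threshold (adjusted p = 0.0572), as did that in Ezh2 post-rescue (−1.40 ± 0.293, adjusted p = 0.109), while Ezh2 pre-rescue was 1.41 ± 0.293 above Ezh2 -/- cells (adjusted p = 0.0337). The last call was lost in 7 of 15 settings, without Ezh2 -/- replicate 2 (0.86) or any 1 array of the 3 rescue groups (adjusted p up to 0.238). The post-rescue arrays lay between the Ezh2 -/- arrays and below all control and pre-rescue arrays.
Col11a1 read 8.56 and 8.76 with Ezh1 pre-rescue, 8.13 and 8.69 with Ezh2 pre-rescue, 6.32 and 6.40 with Ezh2 post-rescue, 7.36 and 6.33 in Ezh2 -/- and 7.56 and 8.50 in control cells. No comparison of Col11a1 was called (−1.18 ± 0.385 in Ezh2 -/-, adjusted p = 0.192, and −1.67 ± 0.385 in Ezh2 post-rescue, adjusted p = 0.144). Its arrays lay below both control arrays in either group, as those of 26.7% of all genes did in Ezh2 -/- and 20.8% in Ezh2 post-rescue.
Col8a1 read 9.76 and 10.17 with Ezh1 pre-rescue, 9.84 and 10.27 with Ezh2 pre-rescue, 9.38 and 9.42 with Ezh2 post-rescue, 9.10 and 9.01 in Ezh2 -/- and 9.58 and 10.27 in control cells. It was −0.87 ± 0.175 from control in Ezh2 -/- cells (adjusted p = 0.0581), and 0.91 ± 0.175 and 1.00 ± 0.175 higher in Ezh1 and in Ezh2 pre-rescue than in Ezh2 -/- cells (adjusted p = 0.0479 and 0.0219). The call in Ezh1 pre-rescue was lost in 8 of 15 settings, without the replicate block, without Ezh2 -/- replicate 2 (0.67) or without any 1 array of the 3 rescue groups (adjusted p up to 0.231). That in Ezh2 pre-rescue was lost without Ezh2 -/- replicate 2 (0.76) or either Ezh2 pre-rescue array (adjusted p up to 0.183).

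Against Ezh2 -/- cells, 6 members were higher in Ezh1 pre-rescue (Col1a2, Col5a2, Col6a1, Col6a2, Col6a3 and Col8a1), where 0.861% of all genes were higher and 1.44% lower. In Ezh2 pre-rescue 11 were higher, the same 6 with Col2a1, Col3a1, Col4a5, Col9a1 and Col28a1, beside 3.15% of all genes higher and 4% lower. In Ezh2 post-rescue 2 were higher (Col6a1 and Col6a2), beside 0.191% of all genes higher and 0.409% lower. In these 3 comparisons 0 members were lower, with 12, 15 and 12 members at an unadjusted p under 0.05 in either direction (20.1%, 23.6% and 13.8% of all genes). The 3 comparisons share the Ezh2 -/- arrays, and each count was 0 without Ezh2 -/- replicate 2 or without either array of its own rescue group, while they were 11, 15 and 4 without either control array. Without either Ezh2 post-rescue array the pre-rescue counts were 1 and 5. At 2-fold, Col6a3 was higher in Ezh1 pre-rescue (0.202% of all genes) and Col5a2, Col8a1, Col9a1 and Col28a1 in Ezh2 pre-rescue (0.521%). The differences between the rescues were not tested. Type VI chains moved in all 3, and Col6a1 read 10.80 and 11.02 with Ezh1 pre-rescue, 10.86 and 11.14 with Ezh2 pre-rescue, 11.04 and 10.99 with Ezh2 post-rescue, 10.23 and 10.16 in Ezh2 -/- and 10.63 and 10.78 in control cells. Col6a2 read 9.91 and 9.95, 10.05 and 10.07, and 10.21 and 10.18 in the same 3 rescue groups, 9.45 and 9.43 in Ezh2 -/- and 9.80 and 9.97 in control cells.

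Against control, limma called 0 members in either pre-rescue group (Ezh1, then Ezh2), with 5 and 7 at an unadjusted p under 0.05 (9.76% and 10.2% of all genes), and without control replicate 2 these counts were 4 and 5. Over all genes 0.0106% were called higher and 0% lower in Ezh1 pre-rescue, and 0% in either direction in Ezh2 pre-rescue. Even the Ezh2 probe set, at 1.59 ± 0.173 above control in Ezh2 pre-rescue, was not called by limma (adjusted p = 0.183). The lack of calls therefore does not show that the collagen genes equalled control. In Ezh2 post-rescue Col1a1 was called higher, beside 0.51% of all genes higher and 0.197% lower (0.356% and 0.101% at 2-fold). Col1a1 read 8.77 and 8.83 with Ezh1 pre-rescue, 8.98 and 8.97 with Ezh2 pre-rescue, 9.79 and 9.32 with Ezh2 post-rescue, 8.49 and 8.42 in Ezh2 -/- and 7.46 and 7.97 in control cells. It rose by 1.84 ± 0.191 in Ezh2 post-rescue (adjusted p = 0.00724), a call lost without Ezh2 post-rescue replicate 1, and stood 0.74 ± 0.191 from control in Ezh2 -/- cells (adjusted p = 0.114), 1.08 ± 0.191 with Ezh1 pre-rescue and 1.26 ± 0.191 with Ezh2 pre-rescue (adjusted p = 0.171 and 0.194). All arrays of the other groups were above both control arrays, as was so for 15.4% to 17.6% of all genes in each group.
Col1a2 read 11.12 and 11.25 with Ezh1 pre-rescue, 11.24 and 11.36 with Ezh2 pre-rescue, 11.09 and 10.81 with Ezh2 post-rescue, 10.51 and 10.45 in Ezh2 -/- and 10.78 and 11.00 in control cells, with −0.41 ± 0.123 in Ezh2 -/- cells against control (adjusted p = 0.16). It thus stood on the other side of control from Col1a1 in Ezh2 -/- cells, with neither called.
Col3a1 read 9.70 and 9.80 with Ezh1 pre-rescue, 9.84 and 10.32 with Ezh2 pre-rescue, 10.09 and 9.84 with Ezh2 post-rescue, 9.36 and 9.31 in Ezh2 -/- and 9.58 and 9.94 in control cells, and was 0.74 ± 0.168 higher in Ezh2 pre-rescue than in Ezh2 -/- cells (adjusted p = 0.042), a call lost without any 1 array other than those of control (0.52 to 0.96, adjusted p up to 0.287).

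**Figure D3:**
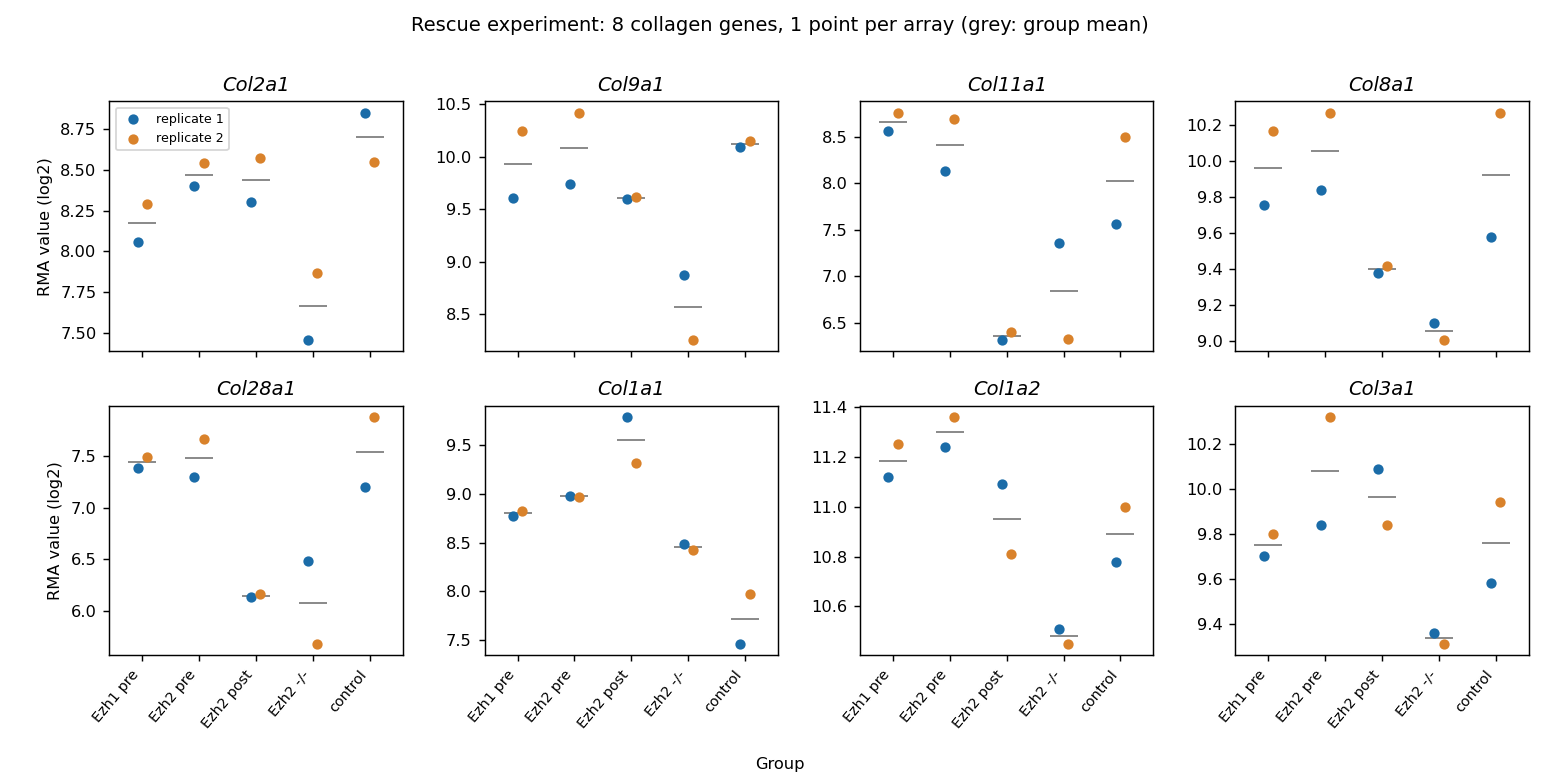
RMA log2 value on each array (1 point per array, grey bar at the group mean) of 8 collagen genes in Ezh1 pre-rescue, Ezh2 pre-rescue, Ezh2 post-rescue, Ezh2 -/- and control cells, with a separate vertical scale per gene. Col11a1 and Col28a1 were low in both Ezh2 post-rescue and Ezh2 -/- cells, and Col1a1 was lowest in control cells.

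The difference between the change in Ezh2 -/- cells and that at day 32 was tested for each member in a fit of all 18 arrays. It was called for Col27a1 alone, at 0.46 ± 0.117 (adjusted p = 0.0295), beside 2.48% of all genes higher and 5.64% lower. At 2-fold 0 members were called (0.882% of all genes higher). Col27a1 read 6.52 and 6.44 in Ezh2 -/- and 6.45 and 6.57 in control cells, and 5.19 and 5.20 at day 32 and 5.75 and 5.62 in vehicle cells. Its groups overlapped in the rescue experiment and not in the time course. The call was lost without either day 32 array or without Ezh2 -/- replicate 1, and 5 members were called without control replicate 2 and 4 without Ezh2 -/- replicate 2.

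**Figure D4:**
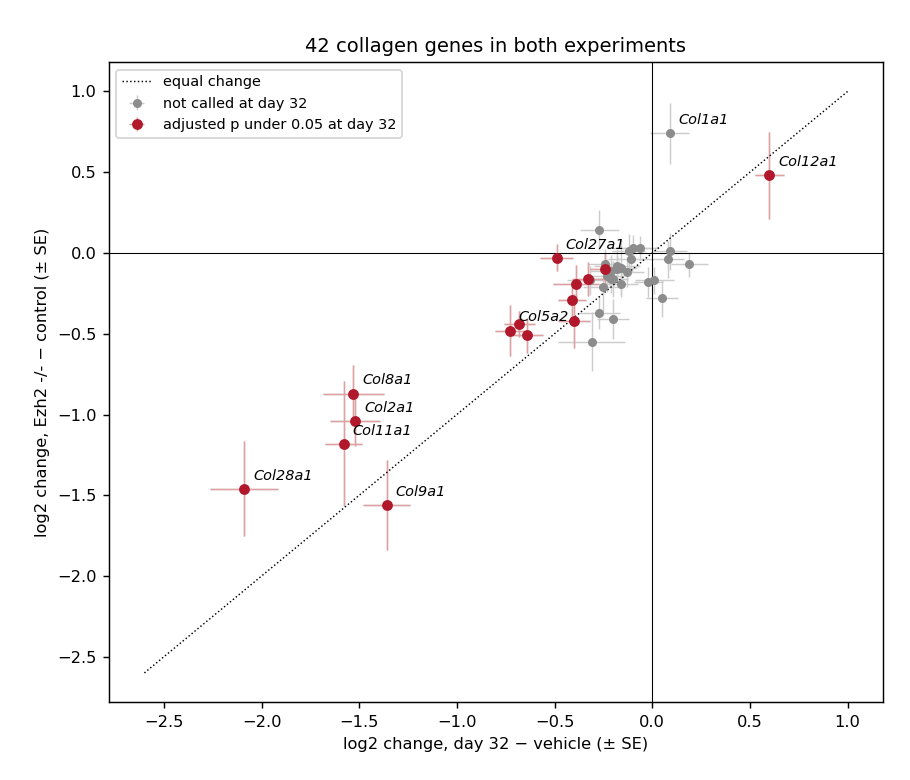
Log2 change in Ezh2 -/- cells against control (vertical axis) and at day 32 against vehicle (horizontal axis) of the 42 collagen genes, with bars of 1 SE, red for the 15 genes called at day 32, and a dotted line for equal change. The 5 genes at the lower left (Col2a1, Col8a1, Col9a1, Col11a1 and Col28a1) lie between −2.09 and −1.36 at day 32 and between −1.56 and −0.87 in Ezh2 -/- cells.

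Collagen chains are modified, folded and exported by a dedicated machinery before they are trimmed and crosslinked outside the cell. The genes of each step were counted from lists. These lists and the marker lists below were chosen with earlier results of these data known, so they describe the data and are not independent support. Their counts are to be read against the shares of all genes given above for each time, such as 18.4% higher and 14.2% lower for day 32. Of 14 measured enzymes and partners of prolyl and lysyl modification, 1 rose and 4 fell at day 5, 9 fell and 0 rose at day 18, and 11 fell and 0 rose at day 32 (median −0.38 at day 32, against −0.018 for all genes). Colgalt2, a collagen galactosyltransferase, fell by 2.55 ± 0.172 at day 32 (adjusted p = 5.55e-06) and fell by 2.21 ± 0.270 in Ezh2 -/- cells (adjusted p = 0.00993). P3h1, a prolyl 3-hydroxylase, read 7.04 and 7.14 at day 32 and 8.05 and 8.14 in vehicle cells (−1.01 ± 0.078), P4ha2, a prolyl 4-hydroxylase subunit, fell by 0.69 ± 0.081, and Plod1, a lysyl hydroxylase, fell by 0.64 ± 0.077 in Ezh2 -/- cells. In Ezh2 -/- cells 4 of the 14 fell and 0 rose (0.755% and 1.2% of all genes), and in Ezh2 pre-rescue 6 were higher than in Ezh2 -/- cells and 0 lower (3.15% and 4% of all genes). Of 10 folding and export genes, 1 rose and 2 fell at day 5 and 0 and 4 at day 32, namely Fkbp14, a proline isomerase of the endoplasmic reticulum (−1.04 ± 0.080), the coat proteins Sec24d (−0.57 ± 0.076) and Sec23a (−0.43 ± 0.079), and the collagen-binding protein gene Sparc (−0.36 ± 0.072).

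Outside the cell the counts were mixed, beside 11% of all genes higher and 5.72% lower at day 5 and 18.4% and 14.2% at day 32. Of 7 genes of propeptide removal, 2 rose and 1 fell at day 32, with the procollagen protease Adamts14 at 1.16 ± 0.090, Tll1 at 0.80 ± 0.097 and Bmp1 at −0.27 ± 0.090. Of 5 crosslinking genes, 3 rose and 0 fell at day 5 (median 0.66), and 2 rose and 1 fell at day 32. The lysyl oxidase-like gene Loxl4 rose by 0.53 ± 0.114 at day 32 and by 1.01 ± 0.148 in Ezh2 -/- cells (adjusted p = 0.0194), and the transglutaminase gene Tgm2 fell by 1.21 ± 0.209 at day 32. Of 10 collagen receptors, 5 rose and 0 fell at day 5, and 1 rose and 3 fell at day 32, the discoidin receptor Ddr1 at 0.41 ± 0.082 and the integrin subunit Itgb1 at −0.35 ± 0.070. Of 15 degradation genes, 3 rose and 1 fell at day 5, and 1 rose and 4 fell at day 32, with the gelatinase gene Mmp2 at −1.15 ± 0.074 and the inhibitor gene Timp2 at −0.84 ± 0.070. Mmp14, a membrane-bound collagenase, fell at day 32 (−0.66 ± 0.094) and in Ezh2 -/- cells (−0.55 ± 0.102). Of 18 regulators of collagen genes, 7 rose and 5 fell at day 5 and 4 and 7 at day 32. Sox5 and Sox6, partners of Sox9 in driving cartilage collagens, were at −0.86 ± 0.094 and −1.83 ± 0.118 at day 32, Tgfb2 fell by 1.51 ± 0.107, and Tgfbr1, a receptor of TGF beta, rose by 1.05 ± 0.080 at day 32 and by 0.80 ± 0.102 in Ezh2 -/- cells.

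Of 11 cartilage markers, 2 fell at day 5 (5.72% of all genes did), 7 at day 18 (10.5%), 7 at day 32 (14.2%) and 3 in Ezh2 -/- cells (0.755%), and 0 rose in any of these. Comp, Matn3, Matn4 and Chad were not called at any of the 3 times, but Comp fell in Ezh2 -/- cells (−0.60 ± 0.106). The chondrocyte genes Ucma and Cnmd were at −5.56 ± 0.141 and −4.71 ± 0.086 at day 32 and at −2.77 ± 0.384 and −1.78 ± 0.15 in Ezh2 -/- cells. Sox9, their master regulator, read 10.56 and 10.60 at day 32 and 11.23 and 11.44 in vehicle cells (−0.75 ± 0.083). In Ezh2 -/- cells Sox9 was at −0.94 ± 0.182 and was not called by limma (adjusted p = 0.0515). Ucma, Cnmd and Sox9 held 92.5% to 94.5% of the list's summed intensity on the time-course arrays and 77.1% to 86.8% on the rescue arrays. At day 32 Ucma read 3.45 and 3.81 and Cnmd 5.04 and 5.01, so the sum there describes mainly Sox9. The summed intensity was 3922 to 4630 in vehicle cells, 3377 to 3516 at day 5, 1645 to 1670 at day 18 and 1675 to 1723 at day 32. In the rescue experiment it was 4168 to 4371 in Ezh1 pre-rescue, 4523 to 5228 in Ezh2 pre-rescue, 3689 to 4122 in Ezh2 post-rescue, 2193 to 2675 in Ezh2 -/- and 5102 to 5500 in control cells. Of 11 fibroblast markers, 6 rose and 1 fell at day 5 and 1 rose and 7 fell at day 32 (18.4% and 14.2% of all genes), with summed intensities of 19449 to 20029 in vehicle cells, 22230 to 22457 at day 5, 13784 to 14070 at day 18 and 13199 to 13278 at day 32. Lum and Dcn, proteoglycans that bind collagen fibrils, were at −3.57 ± 0.123 and −2.89 ± 0.069 at day 32. Fap was the marker that rose then (0.67 ± 0.134), and Vim, Thy1 and Pdgfra were not called. Of the 11 fibroblast markers, 1 fell and 0 rose in Ezh2 -/- cells (0.755% and 1.2% of all genes). Lum was the one called there by limma (adjusted p = 0.0258), and Dcn, at −1.28 ± 0.528, was not (adjusted p = 0.302). At day 32 bone markers had 1 higher and 1 lower of 6, tendon markers 0 and 4 of 5, smooth muscle markers 1 and 2 of 6, endothelial markers 2 and 0 of 7, epithelial markers 0 and 0 of 7 and blood markers 1 and 0 of 6. The summed intensity was 139 to 141 in vehicle cells and 185 to 193 at day 32 for endothelial markers, 119 to 150 over the time course for epithelial markers, and 122 to 127 in vehicle cells, 183 to 209 at day 18 and 156 to 162 at day 32 for blood markers. Lyz2 was the only blood marker called at these times (1.77 ± 0.121 at day 18 and 0.90 ± 0.121 at day 32). Only Egfl7 (0.76 ± 0.096) and Pecam1 (0.37 ± 0.091) were called among endothelial markers at day 32. The part of these marker shifts in the collagen changes was not tested.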

How the data were processed

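RNA of 18 samples was hybridized to Affymetrix Mouse Gene 1.1 ST arrays. The deposited values are log2 intensities that the authors normalized by RMA in the R package oligo (versions not given in the sources used here). Per the methods, the first and second rescue replicates were batch-corrected with limma, but whether this is part of the deposited table is not stated. Of 28440 probe sets, 21217 had 1 symbol, 1881 several and 5342 none, and 21184 matched the RefSeq annotation by gene ID. Each of 18820 genes was represented by its brightest probe set on average.

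The tests were two-sided moderated tests from limma 3.58.1 under R 4.3.3, without a block in the time course (4 residual degrees of freedom) and with the replicate number as a block in the rescue experiment (4), and tested on simulated data. The study's RankProduct test was not run; its thresholds were tried on the limma fit. The alternatives were median centring, quantile normalization, averaged probe sets, leaving out the lowest 30% of genes, stricter calls, the block and each array left out. Array values are printed for members called at 2-fold or more against vehicle or control and for Col1a1, Col1a2 and Col3a1, and those of other called members and of marker genes were chosen after their values were seen. Of each list up to 4 genes at day 32 and 2 in Ezh2 -/- cells were named by adjusted p, and some further genes, called or not, were added. The members and lists (collagen processing, receptors, degradation, regulators and cell type markers) were chosen with earlier results of these data known.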

Additional observations from a re-analysis of the deposited data

Results flagged for a closer look

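Col27a1 was flagged because its change was called different between the experiments. It fell by 0.49 ± 0.083 at day 32 against vehicle and was at −0.03 ± 0.083 in Ezh2 -/- cells against control, a difference of 0.46 ± 0.117 by limma (adjusted p = 0.0295, n = 2 arrays per group). That was 1 of the 42 members (2.38%), near the 2.48% of all genes called higher. The call was lost without either day 32 array or without Ezh2 -/- replicate 1. The experiments were normalized apart, and the part of this in the difference was not tested.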

How the results depend on the processing

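With median centring the collagen genes called were 14 at day 5, 30 at day 18, 28 at day 32 and 2 between day 18 and day 32, 6 in Ezh2 -/- and 2 in Ezh2 post-rescue against control, and 10 in Ezh1 pre-rescue against Ezh2 -/- cells. With quantile normalization Ezh2 -/- cells had 5, and the contrasts with Ezh2 -/- cells had 10 (Ezh1 pre-rescue) and 4 (Ezh2 post-rescue). Without the lowest 30% of genes they were 2 between day 18 and day 32. With a 2-fold minimum and an adjusted p under either 0.05 or 15% they were 1 at day 5, 5 at day 18, 5 at day 32, 4 between day 5 and day 18, 0 between day 18 and day 32, and 0 for the difference between the experiments. Under those 2 thresholds Ezh2 pre-rescue against Ezh2 -/- cells gave 4 and 5, and Ezh2 post-rescue against Ezh2 -/- cells 0 and 1. Ezh1 pre-rescue against Ezh2 -/- cells gave 1 at the stricter one, and Ezh2 post-rescue against control 3 at the looser one. Leaving out 1 array at a time, with a lone array assumed to vary like the other groups, gave 4 to 11 at day 5, 10 to 15 at day 18, 12 to 17 at day 32, 11 to 17 between day 5 and day 18, and 0 to 3 between day 18 and day 32. Against control it gave 0 to 6 in Ezh2 -/-, 0 to 4 in Ezh1 pre-rescue, 0 to 5 in Ezh2 pre-rescue and 0 to 3 in Ezh2 post-rescue, and 0 to 11, 0 to 15 and 0 to 4 in the same rescue groups against Ezh2 -/- cells, and 0 to 5 for the difference between the experiments. Some settings hold fewer arrays or genes; beyond that the cause was not tested. Over 37 single-gene results and 503 settings, 431 kept their call, 72 lost it and 0 reversed.

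In the time course the replicate numbers were not taken as pairs, because the methods name no pairing there and not every correlation was above 0.1. Deviations of same-numbered arrays correlated between −0.07 and 0.05 in the time course (6 pairs of groups) and between −0.43 and 0.54 in the rescue experiment (10 pairs, 6 negative). In the rescue experiment the methods name a batch difference between first and second replicates. The block, which matches arrays by replicate number, was kept there despite the negative correlations. With the replicate block the time course gave 8, 14 and 16 members at day 5, 18 and 32, 16 between day 5 and day 18 and 1 between day 18 and day 32. Without the block the rescue experiment gave 4 in Ezh2 -/-, 0 and 0 in the pre-rescues and 1 in Ezh2 post-rescue against control, 9, 12 and 3 in Ezh1 pre-rescue, Ezh2 pre-rescue and Ezh2 post-rescue against Ezh2 -/- cells, and 1 for the difference between the experiments, which was also 1 with a block in each.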
